A study of Homo sapiens with 4 samples.

Results

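The SR splicing factors are a family of RNA-binding proteins named for the arginine and serine dipeptides of their tails. The genes were taken by name from the deposited table, and SRSF1, SRSF2, SRSF3, SRSF4, SRSF5, SRSF6, SRSF7, SRSF9, SRSF10 and SRSF11 were each found in 1 row, 10 of 58174 genes. The table holds a read count and an FPKM value, the level scaled by transcript length and by the size of the library, for 4 libraries. SW1990 and PANC-1, both established human pancreatic cancer cell lines, were left unirradiated or exposed to 10 Gy of X-rays, and 1 library was made from each line and treatment. The time from radiation to RNA extraction is not given in the sources used here. The lines were grown in different media, so line and medium cannot be told apart. The SW1990 libraries held 17851815 (unirradiated) and 18305682 (irradiated) counts on genes, and the PANC-1 libraries 23323266 and 20026595. With 1 library per condition no difference between conditions has a replicate check. The intervals given below, for fold changes, ratios and shares, cover counting error only. In RNA from a whole culture, fewer cells and less RNA per cell cannot be told apart.

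SR proteins bind exonic enhancers in pre-mRNA through RNA recognition motifs, and their arginine-serine tails recruit components of the spliceosome. Phosphorylation of the tails by the SRPK and CLK kinases controls where the proteins reside and when they act. Many SR genes hold conserved exons or introns whose inclusion or retention directs their own mRNA to nonsense-mediated decay, by which the proteins limit their own level. In GENCODE release 29 all 10 genes had at least 1 transcript of the nonsense-mediated decay class, against 43.2% of 12644 protein-coding genes tested here. The number of such transcripts ran from 1 in SRSF5, SRSF6 and SRSF9 to 6 in SRSF7, and SRSF5 had 8 transcripts with a retained intron. The deposited values are 1 per gene and library, so the share of each transcript was not measured.

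The labelled cell type was checked against markers of epithelium. The keratin gene KRT7, a ductal marker, had only 97 to 145 counts in each library, while KRT8 and KRT18 had between 19834 and 53301 counts in each library and KRT19 between 5490 and 8933. EPCAM and CDH1, which encode epithelial adhesion molecules, had 7348 and 9906 counts in unirradiated SW1990 cells but 108 and 59 in unirradiated PANC-1 cells, where VIM, the mesenchymal intermediate filament gene, had 82406. The leukocyte gene PTPRC and the endothelial gene PECAM1 had at most 2 counts in any library, and the acinar gene CPA1 and the islet gene INS were at 0 in all of them. PRSS1, a further acinar gene, had 12 and 8 counts in SW1990 and 0 in PANC-1 cells. Of the mesenchymal genes, COL1A1 had 103 and 165 counts in SW1990 and 965 and 1315 in PANC-1 cells, and PDGFRB had 129 and 63 in SW1990 and 0 and 3 in PANC-1 cells. At the depth of these libraries, 3 counts correspond to a CPM of between 0.129 and 0.168, and every SR gene had at least 788 counts in every library.

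All 10 SR genes were expressed well above the typical gene. Their FPKM values ran from 27.6 to 119 in unirradiated SW1990 cells (median 60.8) and from 22.5 to 92.2 in unirradiated PANC-1 cells (median 39.4), while the median over genes with an FPKM of at least 1 was 9.37 and 8.84. Together the 10 genes took 0.178% of the gene counts in unirradiated and 0.145% in irradiated SW1990 cells (Wilson 95% intervals 0.177% to 0.18% and 0.143% to 0.146%). In PANC-1 cells they took 0.121% and 0.129% (0.119% to 0.122% and 0.127% to 0.131%). The summed FPKM of the family was 645 and 539 in SW1990 cells and 432 and 446 in PANC-1 cells. Of the library size scaled by TMM over the 4 libraries, they took 0.166% and 0.14% in SW1990 cells and 0.131% and 0.132% in PANC-1 cells. The family was thus lower in the irradiated library of SW1990 cells under both scalings, while the PANC-1 libraries were almost equal once scaled by TMM.

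SRSF1 (chr17:58003360-58007346, GRCh38, minus strand), the founding member of the family, had the highest FPKM of the 10 genes in all 4 libraries (119 and 94.0 in unirradiated and irradiated SW1990 cells, 92.2 and 73.2 in PANC-1 cells). It held between 16.4% and 21.3% of the summed FPKM of the family. SRSF9, its closest relative, and SRSF6 followed in SW1990 cells, with 98.5 and 82.5 FPKM without and 82.6 and 68.0 with radiation. In PANC-1 cells SRSF9 stood behind SRSF1, SRSF6 and SRSF11 without radiation, at 46.4 FPKM, and directly behind SRSF1 with it, at 62.8. SRSF4 had the lowest FPKM in 3 of the libraries, between 22.9 and 32.4, and SRSF5 had the lowest, 22.5, in unirradiated PANC-1 cells. The highest and the lowest member of a library differed between 2.9-fold and 4.3-fold. Whether neighbours in this order differ beyond the spread of replicates could not be judged from 1 library each, and some were close: in unirradiated SW1990 cells SRSF3, SRSF11 and SRSF5 had 61.3, 61.0 and 60.5 FPKM.

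**Figure D1:**
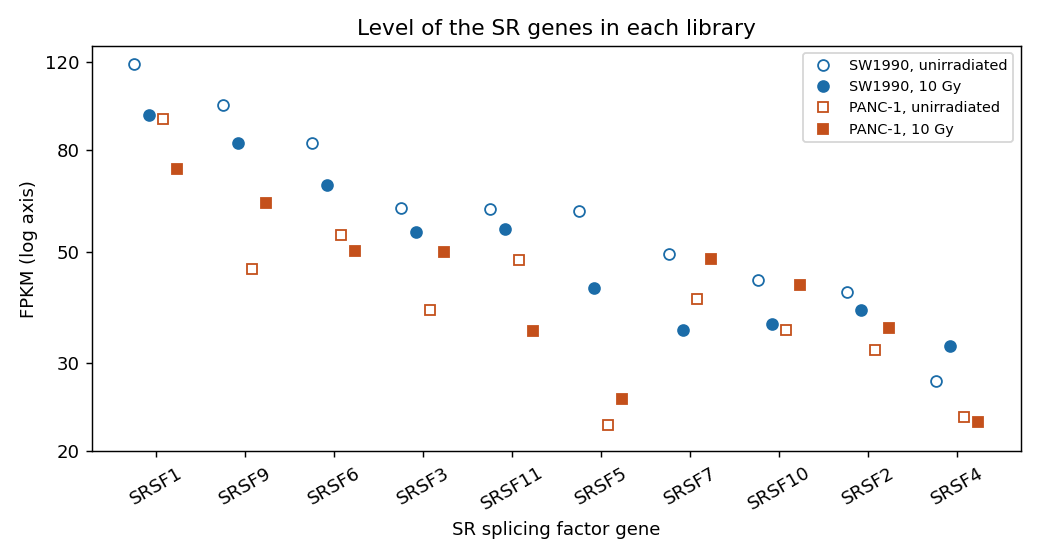
FPKM (log axis) of each SR gene in the 4 libraries, 1 point per gene and library, with circles for SW1990 and squares for PANC-1, open without and filled with radiation. SRSF1 is highest in every library, and the PANC-1 points of SRSF5, at 22.5 and 25.4, lie below both SW1990 points, at 60.5 and 42.4. Other SR genes, such as SRSF1, SRSF6 and SRSF9, show the same order of the lines.

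To ask how radiation changed the transcriptome, the irradiated library of a line was set against its unirradiated one, gene by gene. A gene was called changed when its reads differed at a q-value below 0.001 (edgeR's exactTest with no spread between replicates, Benjamini-Hochberg adjustment over all genes tested) and its fold change was above 2. This test compares the libraries and not the conditions. In SW1990 cells 0 of the 10 SR genes were called, against 4.13% of 15731 genes tested. With a limit of 1.5-fold, the count was also 0 of 10, against 9.26% of all genes and 4.52% of the 4820 genes with at least 788 counts in both libraries. All 10 genes were lower in the irradiated library by counts, as were 50.7% of all genes. From FPKM 9 were lower, as were 53.0% of all genes, and SRSF4 was higher. The counting interval lay below 0 for 9 of the 10, against 23.5% of all genes and 30.4% of those 4820, and above 0 for none, against 25.2%. The median log2 fold change of the SR genes was -0.30, beside -0.01 for all genes tested, whose quartiles were -0.24 and 0.24.

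SRSF1, a general activator of exon inclusion, went from 5792 to 4427 counts in SW1990 cells on radiation (log2 fold change -0.39, 95% counting interval -0.45 to -0.34). SRSF5 (chr14:69726900-69772005), a member with a pair of RNA recognition motifs, had 1733 and 1327 counts and the same log2 fold change of -0.39 (-0.50 to -0.29). By counts these were the largest changes of the family in this line, both 1.31-fold, while FPKM gave -0.51 for SRSF5, -0.51 for SRSF7 and -0.34 for SRSF1. By counts, 84.1% and 84.0% of all genes tested had a higher log2 fold change than SRSF1 and SRSF5.
SRSF7, which carries a zinc knuckle and serves in mRNA export, had 1979 and 1550 counts (-0.36). SRSF10, which represses splicing when it is dephosphorylated, had 2669 and 2095 (-0.36). SRSF4 and SRSF6, the close relatives of SRSF5, had 2786 and 2254 counts (-0.31) and 6414 and 5282 counts (-0.29). From FPKM SRSF4 had the opposite sign, 0.23.
SRSF2, SRSF3 and SRSF9 were nearer to equal in the libraries, with log2 fold changes between -0.20 and -0.18. SRSF11 (chr1:70205682-70253052), a regulator of alternative splicing, had 2820 and 2809 counts, a log2 fold change of -0.01 whose interval (-0.09 to 0.06) spanned 0. Within SRSF1, 56.6% of the exon bases are shared with AC015813.2 on the same strand, a gene of between 9 and 32 counts per library.

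In PANC-1 cells 0 of the 10 genes were called at either limit, against 4.7% of 15159 genes tested at 2-fold and 11.7% at 1.5-fold, or 6.7% of the 5209 genes with at least 788 counts in both libraries. Here the SR genes lay on both sides of 0. In the irradiated library 6 of them were higher and 4 lower (5 to 7 higher under other scalings), against 51.7% of all genes lower, with a median log2 fold change of 0.05 beside -0.02 for all genes. The interval was above 0 for 4 genes and below 0 for 2, against 26.0% and 30.5% of all genes tested and 29.7% and 43.2% of those 5209.

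SRSF9 (chr12:120461668-120469793) was the SR gene with the highest fold change in PANC-1 cells, with 1566 counts without and 1890 with radiation, a log2 fold change of 0.40 (0.30 to 0.50). Its annotated exons share 46.2% of their bases with GATC on the opposite strand, a gene with 814 and 786 counts in these libraries and with 1358 and 1627 in those of SW1990 cells. The sources used here do not say that the counting used strand, so reads of this stretch cannot be told apart.
SRSF10 (chr1:23964804-23980927) had 2617 and 3012 counts, a log2 fold change of 0.33 (0.26 to 0.41). SRSF3, the smallest SR protein and a factor of mRNA export and polyadenylation, had 3100 and 3345 counts (0.24, 0.17 to 0.31). SRSF7, its nearest relative, had 2271 and 2218 (0.10, 0.01 to 0.18), fewer reads in a smaller library. These 4 genes had intervals above 0, but with DESeq2's size factors that of SRSF7 spanned 0 (-0.02 to 0.15) and 3 genes were left, and with scaling by total counts SRSF2 and SRSF6 joined them.
SRSF11 had 2938 and 1957 counts, a log2 fold change of -0.46 (-0.54 to -0.37), or 1.37-fold. By TMM-scaled counts this was the largest change of any SR gene in either line, but under total counts it was -0.37 and SRSF9 had 0.49, and from FPKM it was -0.48, less in size than SRSF5 and SRSF7 in SW1990 cells. SRSF1 had 5414 and 4135 counts (-0.26, -0.32 to -0.20). SRSF2, SRSF4, SRSF5 and SRSF6 had intervals that spanned 0, with log2 fold changes from -0.13 to 0.10, but with DESeq2's size factors that of SRSF5 lay below 0, while its FPKM gave 0.17. SRSF2 shares 36.7% of its exon bases with MFSD11 on the opposite strand, a gene of between 205 and 391 counts per library. The rows named as pseudogene copies of SRSF1 and SRSF9, SRSF1P1 and SRSF9P1, were at 0 in every library.

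The lines were then set side by side. SRSF1 was the one SR gene whose interval lay below 0 in both lines (with DESeq2's size factors SRSF5 was a further one), against 10.6% of the 13228 genes tested in both. SRSF3, SRSF7, SRSF9 and SRSF10 had intervals below 0 in SW1990 and above 0 in PANC-1 cells. With DESeq2's size factors SRSF7 did not, and with scaling by total counts SRSF2 and SRSF6 joined them. Of the genes tested in both lines 5.5% had intervals in this order, and 13.3% had them on opposite sides in either order. Counting intervals narrow with depth, and these shares, like the 10.6%, were not taken at the depth of the SR genes. The log2 fold change in SW1990 minus that in PANC-1 cells was -0.69 for SRSF10 (95% counting interval -0.80 to -0.58) and -0.59 for SRSF9 (-0.72 to -0.46). For SRSF11 it was 0.44 (0.33 to 0.56), the one positive difference among the 10 by counts. No test of these differences was made, since a fit with the interaction leaves no residual degrees of freedom. When the 4 libraries were fitted together, adjusting for line (quasi-likelihood test of edgeR, 1 residual degree of freedom), 0 of 18180 genes had an adjusted p-value under 0.05 for radiation, and 833 genes or 4.58% had an unadjusted one under 0.05. DESeq2 gave 39 genes, with 0 SR genes among them. SRSF1 had the largest change of the SR genes in this fit, a log2 fold change of -0.31 ± 0.13 (SE) with an adjusted p-value of 0.936 by edgeR, lower in 2 of 2 lines. The adjusted p-values of the other SR genes ran from 0.936 to 0.999, and so none passed the test.

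The RefSeq promoter sequences (GRCh38.p14, 250 bases before to 50 after a gene's start) of 3 genes are shown so that genes with unlike patterns can be compared, SRSF1 as lower in both lines, SRSF3 as lower in SW1990 and higher in PANC-1 cells, and SRSF5 as the gene that differed most between the lines. Each is written 5′ to 3′, and capitals mark TGACG on either strand, the core of the cyclic AMP response element.
SRSF1, chr17:58007197-58007496, minus strand: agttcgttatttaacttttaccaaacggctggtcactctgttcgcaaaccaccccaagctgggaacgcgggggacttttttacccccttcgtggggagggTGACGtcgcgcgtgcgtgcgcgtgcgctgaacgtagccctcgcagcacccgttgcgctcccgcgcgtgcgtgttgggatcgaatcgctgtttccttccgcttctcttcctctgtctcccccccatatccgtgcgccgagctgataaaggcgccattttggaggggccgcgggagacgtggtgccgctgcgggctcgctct
SRSF3, chr6:36594112-36594411, plus strand: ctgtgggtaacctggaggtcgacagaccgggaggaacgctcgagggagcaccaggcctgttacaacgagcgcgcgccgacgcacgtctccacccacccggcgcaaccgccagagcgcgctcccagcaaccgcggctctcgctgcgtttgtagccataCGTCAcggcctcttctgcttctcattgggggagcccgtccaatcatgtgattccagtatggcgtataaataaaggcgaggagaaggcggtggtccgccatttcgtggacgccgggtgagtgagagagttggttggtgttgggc
SRSF5, chr14:69766892-69767191, plus strand: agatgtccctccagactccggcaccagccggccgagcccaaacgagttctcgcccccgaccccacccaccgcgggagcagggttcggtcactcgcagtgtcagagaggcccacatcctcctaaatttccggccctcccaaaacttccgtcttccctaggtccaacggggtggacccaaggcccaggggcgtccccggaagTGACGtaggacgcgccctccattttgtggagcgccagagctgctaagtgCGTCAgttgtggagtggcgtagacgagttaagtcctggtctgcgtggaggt
The table of promoters held 11 entries for 9 of the 10 genes, SRSF7 and SRSF11 with 2 each. TGACG was found on either strand in 6 of the 11 entries and in 24.6% of all 35116 promoters of this length. Both SRSF11 entries are among the 6, as are all 3 promoters shown. The entries of SRSF4, SRSF6, SRSF9 and SRSF10 did not hold TGACG, though SRSF9 and SRSF10 had the same pattern as SRSF3. The GC box GGGCGG was in 5 of 11 and in 45% of all promoters, and CCAAT was in 1 of 11, that of SRSF3, against 34.6%. The 2 SRSF7 entries (chr2:38751445-38751744 and chr2:38751312-38751611) overlap, and the GC boxes of their shared stretch are counted in both. TATAAA was in 3 of 11, CCGGAAG in 2 and TTTCCCGC in 1, against 11.5%, 10.3% and 1.63%. The SRSF5 promoter lies inside the gene interval of the deposited table (chr14:69726900-69772005, GRCh38) and not at its start.

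The next question was which SR genes differed between the lines. When the 4 libraries were fitted together, adjusting for treatment, 1 of the 10 SR genes differed between SW1990 and PANC-1 cells at an adjusted p-value under 0.05 (edgeR's quasi-likelihood test), against 43.6% of 18180 genes and 39.6% of the 3939 genes with at least 788 counts in every library. The median absolute log2 difference was 0.26 over the SR genes and 0.77 over all genes.
The 1 gene was SRSF5, higher in SW1990 cells. It had 1733 and 1327 counts in unirradiated and irradiated SW1990 cells and 946 and 788 in PANC-1 cells. The log2 ratio of SW1990 over PANC-1 was 1.03 without radiation (95% counting interval 0.92 to 1.15) and 0.80 with it (0.67 to 0.93), and the fitted difference was 0.92 ± 0.16 (SE, 2 libraries per line, adjusted p-value 0.0114 by edgeR). The 2 libraries of a line differ in treatment and are not replicates. The spread in this fit is the disagreement over treatments, with 1 residual degree of freedom. The log2 ratio of the SRSF5 FPKM values was 1.43 and 0.74.
SRSF9 was next, at 0.77 without radiation and 0.21 with it, a fitted difference of 0.49 ± 0.19 (SE, adjusted p-value 0.0993 by edgeR). It did not pass the test, and the ratio was much closer to equal in the irradiated libraries. SRSF7 and SRSF10 had log2 ratios of -0.04 (-0.13 to 0.05) and 0.19 (0.11 to 0.26) in the unirradiated lines, and were lower in SW1990 than in PANC-1 cells after radiation, with -0.47 and -0.48. SRSF11 went the other way, from 0.10 to 0.57. In the unirradiated libraries 9 of the 10 genes were higher in SW1990 cells by counts. This held for 49.1% of 16626 genes whose FPKM reached 1 in either library and 47.3% of the 4327 genes with at least 788 counts in both. From FPKM the exception, SRSF7, was also higher in unirradiated SW1990 cells, with a log2 ratio of 0.30. The epithelial genes EPCAM and CDH1 also differed between the lines, by 6.18 and 7.69 on the log2 scale, and VIM had 17 and 0 counts in SW1990 cells against 82406 and 75166 in PANC-1 cells. Their part in the SRSF5 difference was not tested.

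The deposited counts and FPKM values gave the same direction of change for 9 of the 10 SR genes in SW1990 and 8 of 10 in PANC-1 cells. SRSF4 was the exception in SW1990 cells. Its counts went from 2786 to 2254 while its FPKM went from 27.6 to 32.4, log2 fold changes of -0.31 and 0.23. The CPM that corresponds to 1 FPKM went from 5.65 to 3.80 for this gene, a log2 change of -0.57, which was past 0.5 in either direction for 2.49% of the 4820 genes with at least 788 counts. In PANC-1 cells the same quantity was 4.97 and 5.21. For the other 9 genes its log2 change lay between -0.09 and 0.12 in SW1990 cells. SRSF5 had a log2 fold change of -0.13 from counts and 0.17 from FPKM in PANC-1 cells, and SRSF6 0.00 and -0.10. SRSF4 has annotated coding transcripts of 1264 and 2387 bases and 4 with a retained intron, and which of them the reads came from was not tested.

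**Figure D2:**
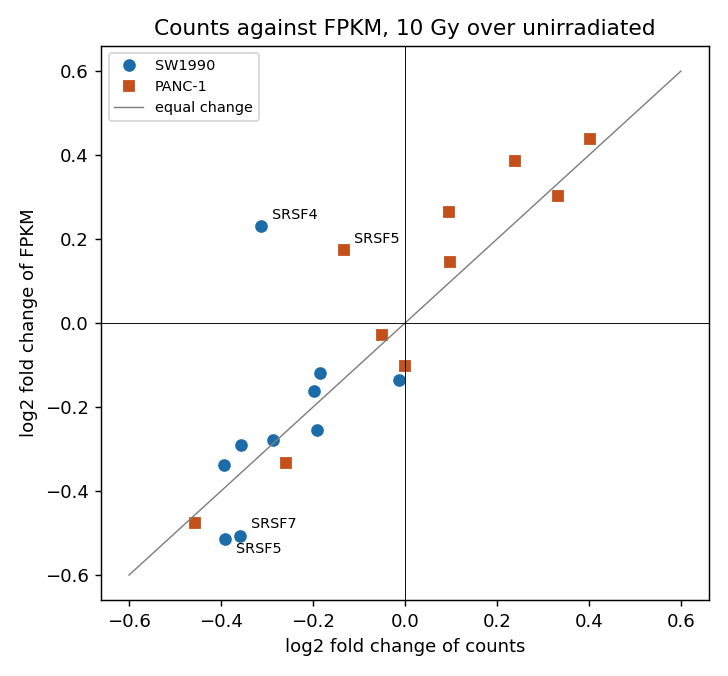
Log2 fold change of FPKM against that of counts, irradiated over unirradiated, with 1 point per SR gene and line. SRSF4 in SW1990 cells (-0.31 from counts and 0.23 from FPKM) and SRSF5 in PANC-1 cells (-0.13 and 0.17) lie on opposite sides of 0 in the 2 measures.

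The partners of the SR proteins were looked at through 5 lists. Over all genes tested in SW1990 and PANC-1 cells, 50.7% and 51.7% were lower in the irradiated library, 4.13% and 4.7% were called at 2-fold, and 9.26% and 11.7% at 1.5-fold. Of the genes with at least 788 counts in both libraries of a line, 4.52% and 6.7% were called at 1.5-fold. Not every list gene reaches this depth. From FPKM, which also scales the libraries differently, 53.0% and 43.4% of all genes were lower. Of the SR kinases and phosphatase, 9 of 10 genes were tested, with 6 lower in the irradiated library of each line and a median log2 fold change of -0.12 in SW1990 and -0.14 in PANC-1 cells. From FPKM 6 and 5 of the 9 were lower. In each line 0 genes of this list were called at 2-fold and 1 of 9 at 1.5-fold, near the share of all genes of any depth. CLK2, a nuclear kinase of SR proteins, had 1012 and 677 counts in SW1990 cells (-0.59, -0.73 to -0.44) and 855 and 707 in PANC-1 cells (-0.14). CLK1, its relative, had 656 and 605 counts in SW1990 cells (-0.12) and 1014 and 610 in PANC-1 cells (-0.60, -0.75 to -0.46), but its FPKM gave -0.27 there, which is under 1.5-fold. CLK4 had 0.04 and -0.38, and CLK3 0.17 and -0.32. The cytoplasmic kinases SRPK1 and SRPK2 had log2 fold changes of 0.11 and -0.07 in SW1990 and -0.06 and 0.05 in PANC-1 cells, and SRPK1 was the 1 gene of this list that differed between the lines (0.67 higher in SW1990 cells on the log2 scale, adjusted p-value 0.019 by edgeR). From FPKM SRPK1 had the opposite signs, -0.07 and 0.17. PRPF4B, a kinase of the spliceosome, had -0.16 and -0.29, but 0.05 from FPKM in SW1990 cells.

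Among other SR and SR-related genes, 18 of 23 tested were lower in each line (78.3%, against 50.7% and 51.7% of all genes), with medians of -0.15 in SW1990 and -0.12 in PANC-1 cells. From FPKM 20 and 14 were lower. At 2-fold 0 were called, and at 1.5-fold 1 in each line, or 4.35%. This was against 9.26% and 11.7% of all genes, and 4.52% and 6.7% of those with at least 788 counts in both libraries. SRSF8, a further numbered SR gene, had 741 and 732 counts in SW1990 cells (-0.02) and 902 and 701 in PANC-1 cells (-0.23), while its FPKM gave 0.07 and 0.04. SRSF12, the last of the numbered family, had 0 counts in every library. RSRC2, a protein rich in arginine and serine, was called at 1.5-fold in SW1990 cells (-0.74, against -0.18 in PANC-1 cells) and RSRC1 in PANC-1 cells (-0.61, against -0.21 in SW1990 cells). RBM39, a splicing coactivator, had -0.32 and -0.55.

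The hnRNP and PTB genes, whose proteins often oppose SR proteins at exons, were the list nearest to the SR genes in SW1990 cells. All 25 were lower in the irradiated library of SW1990 cells, with a median of -0.31, and 19 of 25 in PANC-1 cells, with a median of -0.16, against 50.7% and 51.7% of all genes lower. From FPKM 24 and 16 were lower, HNRNPLL being higher in SW1990 cells. By counts the hnRNP median of PANC-1 cells was thus below 0 where that of the SR genes, 0.05, was above it. At 1.5-fold the list had 1 called gene in SW1990 and 3 in PANC-1 cells, or 4% and 12%. This was against 9.26% and 11.7% of all genes, and 4.52% and 6.7% of those with at least 788 counts in both libraries. HNRNPDL, an mRNA-binding protein, had 4701 and 2972 counts in SW1990 cells (-0.67) and 2771 and 1647 in PANC-1 cells (-0.62). HNRNPD, its relative with a part in mRNA decay, had -0.51 and -0.94, and HNRNPH3 -0.30 and -0.63.

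Of 36 core spliceosome genes, 23 were lower in SW1990 and 29 in PANC-1 cells, or 63.9% and 80.6% against 50.7% and 51.7% of all genes, with medians of -0.04 and -0.11. From FPKM 24 and 18 were lower. At 2-fold 0 were called in either line (4.13% and 4.7% of all genes), and at 1.5-fold 0 and 1. The 1.5-fold shares were 9.26% and 11.7% of all genes, and 4.52% and 6.7% of those with at least 788 counts in both libraries. SNRPB2, of the U2 particle, was called at 1.5-fold in PANC-1 cells (-0.64, against -0.28 in SW1990 cells), SNRPG of the Sm ring had -0.15 and -0.41, and PRPF19, a ubiquitin ligase of the spliceosome, had -0.29 and -0.26. Of 14 genes of nonsense-mediated decay and the exon junction complex, 10 were lower in each line (71.4%, against 50.7% and 51.7% of all genes), with medians of -0.06 and -0.25, and 11 and 8 were lower from FPKM. At 1.5-fold 2 of 14 were called in each line (14.3%, against 9.26% and 11.7%, or 4.52% and 6.7% at 788 counts or more). MAGOH and RBM8A, which form the core of the exon junction complex, had -0.27 and -0.47 in SW1990 cells and -0.96 and -0.68 in PANC-1 cells, where both were called at 1.5-fold, although the FPKM of RBM8A gave 0.54 there. SMG8, a subunit of the SMG1 kinase complex, was the only gene of the 5 lists called at 2-fold, with 214 and 778 counts in SW1990 cells (1.86 from counts, but 0.83 from FPKM, which is under 2-fold) and 475 and 377 in PANC-1 cells (-0.20). UPF3A, a decay factor named after its values were seen, was called at 1.5-fold in SW1990 cells (1442 and 928 counts, -0.64) and had 488 and 457 counts in PANC-1 cells (0.04).
Between the lines, 1 of 9 kinase and phosphatase genes, 5 of 23 other SR-related genes, 8 of 25 hnRNP and PTB genes, 10 of 36 core spliceosome genes and 3 of 14 decay genes passed the test, beside 1 of the 10 SR genes and 43.6% of all genes.
Over the 4 libraries the genes nearest to the median profile of the SR genes were ASB13, CTU2 and PDE7A, at root mean square distances of 0.0185, 0.0189 and 0.0249 on the log2 scale. Within 0.05 there were 40 of 7762 genes. SRSF2 lay nearest to this profile among the SR genes, at 0.0321, and SRSF5 farthest, at 0.372.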

How the data were processed

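RNA-seq of SW1990 and PANC-1 cells was analysed from 1 library per line and treatment. The study's methods name an mRNA library kit while the labels call the RNA rRNA depleted, so how far unspliced RNA was counted is not known here. Per the labels and the study's methods, the authors trimmed reads with Trimmomatic 0.36, aligned them to GRCh38 with HISAT2 2.0 and computed the deposited FPKM values with StringTie 1.3.3b. The deposited counts were raw, and what program counted the reads is not given in the sources used here. Loci that name no gene (1089 rows holding 0.453% to 0.635% of a library's counts) were left out. Each pair of libraries was compared with edgeR 4.0.16 (exactTest at dispersion 0, TMM over the pair, R 4.3.3) over genes whose FPKM reached 1 in either library, a value of 0 being set to 0.01. Negative values that arose when libraries were equalised were set to 0. All 4 libraries were fitted with edgeR's quasi-likelihood test (TMM, filterByExpr, common coefficient of variation 0.218), and DESeq2 1.42.0 and limma 3.58.1 served as alternatives. Counting intervals are 95% Clopper-Pearson intervals, and those of differences between lines use a normal approximation. The SR genes, the lists and the tests were chosen with earlier results of these data known. Named besides the SR genes are SRSF8, SRSF12, the SRPK and CLK kinases, up to 3 genes per list with the largest mean change over the lines (FPKM of at least 5), called genes, the 3 nearest profiles and the markers. Genes called at 1.5-fold were named after their values were seen. Nearest profiles used log2(CPM + 0.5).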

Additional observations from a re-analysis of the deposited data

Results flagged for a closer look

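Some of the genes named had log2 fold changes whose counting intervals lay on opposite sides of 0 in the lines. This held for 13.3% of the 13228 genes, of any depth, tested in both. The log2 fold change in SW1990 minus that in PANC-1 cells was -0.44 for SRSF3, -0.46 for SRSF7, -0.59 for SRSF9 and -0.69 for SRSF10, each lower in SW1990 and higher in PANC-1 cells. It was 0.49 for the kinase gene CLK3 and 2.06 for SMG8, both higher in SW1990 and lower in PANC-1 cells. From FPKM the SMG8 difference was 0.97. In all, 13 of the 107 list genes tested in both lines had intervals on opposite sides, among them SNRPD1 (-1.03) and PTBP2 (-0.75), named after their values were seen, whose differences by counts were larger in size than that of any SR gene. From FPKM they were -1.45 and -0.62, and that of PTBP2 was then smaller in size than those of SRSF7 (-0.77), SRSF9 (-0.69) and SRSF5 (-0.69). With DESeq2's size factors the PANC-1 interval of SRSF7 spanned 0. With scaling by total counts SRSF2 and SRSF6 also had intervals below 0 in SW1990 and above 0 in PANC-1 cells. The exons of SRSF9 overlap those of GATC on the other strand. These differences were not tested, because each line has 1 library per treatment.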

How the results depend on the processing

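No SR gene passed 2-fold or 1.5-fold under any scaling or with FPKM fold changes, where the largest was 1.43-fold, and SRSF5 was the one SR gene that differed between the lines in each of the 5 fits. With no fold limit, 8 of 10 SR genes (0 higher) and 4124 of 15731 genes in all were called in SW1990 cells. In PANC-1 cells 5 of 10 SR genes (3 higher) and 5250 of 15159 genes were called. Such calls depend on depth, and no share was taken at the depth of the SR genes. At 1.5-fold 1456 and 1776 genes were called, in place of 650 and 712 at 2-fold. With an assumed coefficient of variation of 0.4 between replicates 15 genes were called in SW1990 and 10 in PANC-1 cells. Scaling by total counts moved the PANC-1 split from 360 higher and 352 lower to 456 and 283, and FPKM fold changes to 406 and 263. The median log2 fold change of the SR genes in PANC-1 cells was 0.14 under scaling by total counts and 0.16 from FPKM, with the median of all genes at 0.07 in both, and 6 or 7 SR genes were higher. All 10 SR genes stayed lower in SW1990 cells under each scaling, and 9 did from FPKM, SRSF4 being higher. In PANC-1 cells SRSF6 changed sign with DESeq2's size factors, with FPKM and with unnamed loci kept, SRSF5 with FPKM and SRSF4 under total counts. DESeq2's Wald test gave 39 genes for radiation over both lines. Scaled by TMM, chosen after seeing the data, the share of the family was 0.166% and 0.14% in SW1990 and 0.131% and 0.132% in PANC-1 cells. The fit of 4 libraries compares the treatments within each line. The labels carry no replicate numbers to pair by, and with 1 library per line and treatment none could be left out.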
